A study of Mus musculus with 8 samples.

Results

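The genes described here are 39 components of the pathway that runs from AKT to mTORC1 and of the machinery by which nutrients reach it. They were chosen by name, as gene symbols in the platform annotation, and each symbol was read from 1 row of the deposited table, the row with the highest mean where there were several. Of the 39, 37 had a row and 32 passed the filter on low values, out of 19505 named genes in the table and 9920 tested. The 5 with a row below the filter were Phlpp2, Tbc1d7, Ddit4, Rragb and Rragd, which are given by their values with no limma test, and Akt1s1 and Rps6kb1 were not analysed here.

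The samples were granulocyte-macrophage progenitors (GMPs) carrying the leukaemia fusion MLL-AF9, sorted as GFP+ cells from the marrow of mice that had received a transplant; the labels call them leukaemia stem cells. The KO group was Pik3ca-/- (3 arrays) and the WT group was wild type for Pik3ca (5 arrays), so both groups carried the fusion and the GFP. The labels do not say how Pik3ca was deleted, how the fusion was introduced, the age of the mice, or whether each array had its own mouse or its own leukaemia. The p-values therefore cover only variation among these arrays, which may be technical. Values are the deposited expression values on a log2 scale, on which 1 unit is a 2-fold difference, and they are compared only within a gene.

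Class I PI3-kinase, whose p110alpha catalytic subunit Pik3ca encodes, makes the membrane lipid that recruits AKT and its activating kinase PDK1. AKT phosphorylates and inhibits the TSC complex, which otherwise keeps the small GTPase RHEB switched off, and RHEB loaded with GTP activates mTORC1 on the lysosome. Amino acids act on the same kinase by another route, through the Rag GTPases that bring mTORC1 to the lysosome, their anchor the Ragulator complex, and their regulators GATOR1 and folliculin. Most of this control is by phosphorylation and nucleotide loading, which an mRNA array does not measure.

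The array of WT replicate 3 stood apart from the other 7. Its mean correlation with the other arrays over the genes tested was 0.921, against 0.968 to 0.972 for the rest, so every comparison is given with it and without it. Pik3ca itself read 8.73, 9.31 and 9.40 in KO arrays 1 to 3, against 9.48, 9.57, 8.41, 9.51 and 9.58 in WT arrays 1 to 5. All 3 KO arrays lay below WT arrays 1, 2, 4 and 5 and above WT array 3. The difference, KO minus WT, was -0.16 over 8 arrays and -0.39 once WT array 3 was left out, and 0 genes passed an adjusted p of 0.05 in either fit. Which exons the Pik3ca row covers was not examined, so its level does not check the deletion. All 12 genes of a GMP and primary granule list, among them Mpo, Elane and Cebpa, lay above the array median on all 8 arrays, with list means of 15.02 to 15.08 in KO and 14.87 to 15.11 in WT arrays. Among lists for other cell types, 6 megakaryocyte genes averaged 5.89 to 6.25 in KO and 5.75 to 9.72 in WT arrays, the highest being WT array 1 (5.75 to 6.77 in the other WT arrays), and 8 mast cell, basophil and eosinophil genes averaged 6.412 to 6.447 in KO and 6.589 to 6.997 in WT arrays, with Fcer1a and Epx above the array median on 0 arrays. The 6 tested genes of that last list went both ways, with differences from -2.19 to 0.76. KO averaged above WT for 2 of them with all arrays and for 3 without WT array 3. Cpa3, lower in KO, had a limma unadjusted p under 0.05 without WT array 3 (adjusted p = 0.989). Lists for 3 other blood lineages were highest in WT array 3. The 7 T and NK cell genes averaged 4.491 to 4.518 in KO and 4.129 to 4.933 in WT arrays, the 6 B cell genes 4.898 to 5.116 in KO and 4.837 to 5.764 in WT arrays, and the 4 erythroid genes 5.082 to 5.405 in KO and 4.846 to 6.518 in WT arrays. All 3 tested T and NK cell genes (Cd3d, Cd4 and Klrb1c) and both tested B cell genes (Cd79b and Vpreb1) read above all other WT arrays in WT array 3, while Cd3e, Cd3g, Cd8a, Ncr1, Cd79a, Ms4a1, Pax5, Klf1 and Epor lay above the array median on 0 arrays. Alas2, the 1 tested erythroid gene, was instead highest in WT array 1. Set against its mean in WT arrays 1, 2, 4 and 5, it read 2.225 higher in WT array 1 and 1.568 higher in WT array 3. Car1 and Ebf1, the remaining erythroid and B cell genes with a row, were below the filter and are not given singly. That the erythroid mean was higher in WT array 3 (6.518) than in WT array 1 (5.844) thus rests on genes that were not tested. The 8 macrophage and dendritic cell genes averaged 5.473 to 5.875 in KO and 5.199 to 5.859 in WT arrays (5.259 in WT array 3), and the 8 stromal and endothelial genes 4.887 to 4.943 in KO and 4.744 to 5.065 in WT arrays (5.065 in WT array 3). The 6 genes of the MLL fusion programme lay above the array median on all 8 arrays and averaged 12.18 to 13.00 in KO and 12.75 to 13.92 in WT arrays, and 1 of them, Pbx3, had an unadjusted p under 0.05 without WT array 3, being lower in KO (adjusted p = 0.989). Their part in any result below was not tested. In bulk RNA, fewer cells of a type and less RNA per cell cannot be told apart.

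None of the 32 tested members differed between KO and WT GMPs beyond the spread between arrays. In limma's fit 0 of 32 passed an adjusted p of 0.05 in either direction, as did 0.0% of the 9920 genes tested in each direction, and every member's adjusted p was 0.998. At an unadjusted p of 0.05 the count was again 0 of 32, against 282 genes or 2.84% of all genes tested (1.47% higher and 1.37% lower in KO), and the smallest member p was 0.117, for Eif4ebp2. Without WT array 3 the counts were 0 of 32 at the adjusted threshold (0.0% of all genes in each direction) and 0 of 32 at the unadjusted one (464 genes or 4.68% of all genes, 2.22% higher and 2.46% lower in KO), with adjusted p from 0.989 to 1.00. The exact two-sided permutation test over 56 splits gave a smallest p of 0.143 among the 32 tested members, where the splits allow 0.0179. Without WT array 3 it gave a smallest p of 0.0571 over 35 splits, where they allow 0.0286.

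The differences of the members lay among those of all genes. KO lay above WT on average for 17 of 32 members (53.1%), against 56% of all genes tested, and the members' median difference was 0.07, with a range of -0.55 to 1.31, against a median of 0.04 over all genes. Without WT array 3 the count was 18 of 32 (56.2%) against 50.1%, and the median was 0.03, with a range of -0.88 to 0.70, against 0.00. The median size of a member's difference, sign ignored, was 0.22 over all 8 arrays and 0.15 without WT array 3, against 0.21 and 0.18 over all genes. A 2-fold difference was excluded only for some members. The 95% interval of the difference lay within 1 log2 unit of 0, that is within a 2-fold difference, for 13 of 32 members with all arrays. Without WT array 3 it did so for 22 of 32. These counts depend on the size of the difference as well as on the width of the interval.

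**Figure D1:**
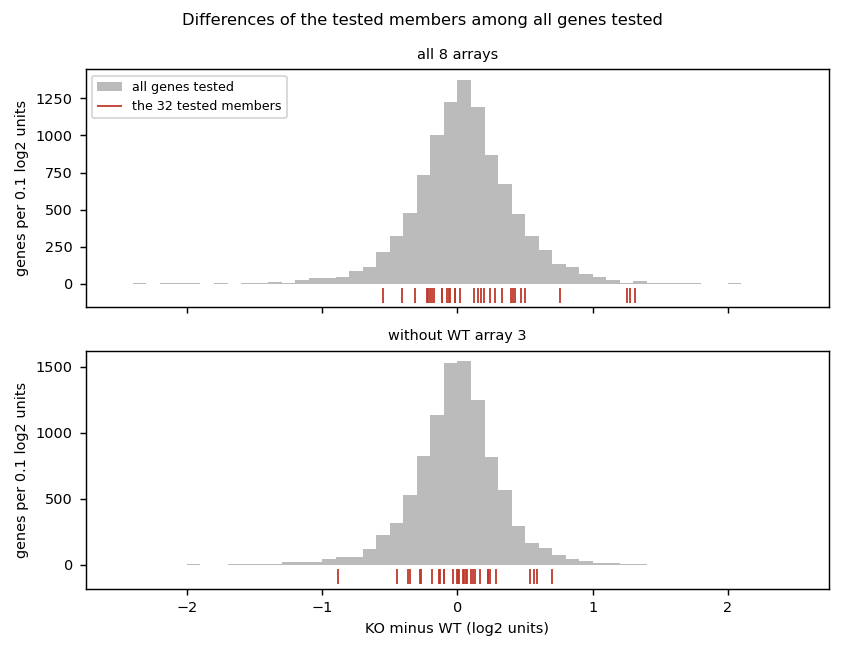
Difference between the KO and WT group means in log2 units (x axis) for all 9920 genes tested, as a histogram of genes per bin of 0.1 log2 units (y axis), with a red tick under it for each of the 32 tested members, with all 8 arrays (top) and without WT array 3 (bottom). The members span -0.55 to 1.31 with all arrays and -0.88 to 0.70 without WT array 3, inside the spread of all genes in both panels.

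The 3 largest member differences, 1.31 for Akt1, 1.28 for Rictor and 1.25 for Rragc, were all smaller without WT array 3 (0.70, 0.58 and 0.28). Set against the mean of WT arrays 1, 2, 4 and 5, that array read more than 1 log2 unit lower for 13 of 32 members (40.6%), against 22.5% of all genes tested, and more than 1 unit higher for 5 (15.6%), against 9.77%. It lay below all other WT arrays for 17 of 32 members (42.2% of all genes) and above all of them for 11 (30.2% of all genes). It lay outside the range of the other 7 arrays, KO and WT together, for 27 of 32 members, against 61.5% of all genes. The shift of WT array 3 from the other WT arrays had a median of -0.50 over the members, from -4.84 for Rragc to 2.06 for Lamtor1, against a median of -0.15 over all genes. What sets this array apart was not tested.

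**Figure D2:**
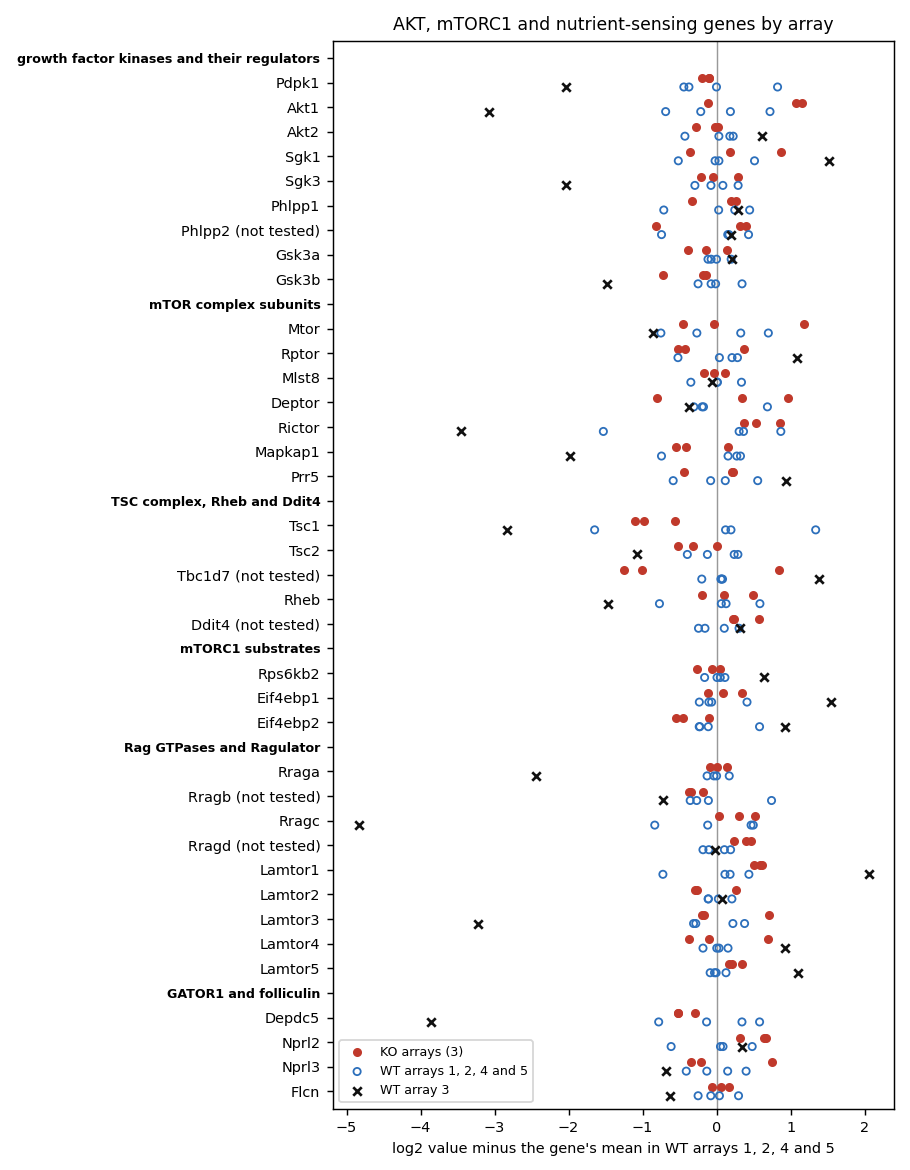
Every member with a row, grouped by role down the page, with each array's log2 value minus the gene's mean over WT arrays 1, 2, 4 and 5 (x axis); filled red points are the 3 KO arrays, open blue points those 4 WT arrays and black crosses WT array 3. The crosses run from -4.84 for Rragc to 2.06 for Lamtor1, while the other 7 arrays of most genes overlap around 0.

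Of the growth factor kinases and their regulators, 8 of 9 were tested, and their median difference was -0.03 over all 8 arrays and -0.05 without WT array 3. Akt1, the most widely expressed AKT kinase, read 9.58, 10.76 and 10.85 in KO arrays 1 to 3, against 9.88, 9.48, 6.62, 10.42 and 9.01 in WT arrays 1 to 5. KO arrays 2 and 3 were the highest of all 8, but KO array 1 lay among the WT arrays, and WT array 3 was the lowest by more than 2 units. The difference was 1.31 (95% interval -0.44 to 3.06, unadjusted p = 0.124, adjusted p = 0.998), and 0.70 without WT array 3 (-0.25 to 1.65, unadjusted p = 0.129, adjusted p = 0.989). Akt2, the AKT kinase best known from insulin action, read 12.91, 12.62 and 12.87 in KO arrays, against 12.93, 13.12, 13.52, 13.08 and 12.47 in WT arrays. The groups overlapped, with the lowest and the highest value both in WT, and the difference was -0.22 (-0.79 to 0.35, adjusted p = 0.998). Sgk3, an AKT-related kinase that binds endosomal lipid, read 14.11, 13.76 and 13.60 in KO arrays, against 13.52, 13.90, 11.78, 13.74 and 14.11 in WT arrays. Only WT array 3 stood away from the rest, and the difference of 0.41 (-0.70 to 1.53, adjusted p = 0.998) was 0.01 without it.

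Pdpk1, which encodes PDK1, averaged 11.04 ± 0.06 in KO and 10.77 ± 1.04 in WT arrays (SD, n = 3 and 5, as for all group means that follow). Its difference was 0.27 over all 8 arrays and -0.13 without WT array 3. Sgk1, a relative of AKT that mTORC2 activates, averaged 5.27 ± 0.62 in KO and 5.34 ± 0.77 in WT arrays. Phlpp1, a phosphatase that removes the mTORC2 phosphate from AKT, averaged 10.00 ± 0.32 in KO and 10.02 ± 0.46 in WT arrays. The related phosphatase Phlpp2 lay below the array median on all 8 arrays, at 3.54 to 4.75 in KO and 3.61 to 4.78 in WT arrays. Gsk3a and Gsk3b, kinases that AKT inhibits, averaged 12.30 ± 0.26 and 13.08 ± 0.32 in KO arrays, against 12.48 ± 0.15 and 13.13 ± 0.70 in WT arrays. For Gsk3b the difference of -0.06 (-0.94 to 0.83) was -0.35 without WT array 3 (-0.85 to 0.15, adjusted p = 0.989).

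Of the mTOR complex subunits, 7 of 8 were tested (not Akt1s1, which encodes PRAS40), with a median difference of 0.12 with all arrays and 0.00 without WT array 3. Rptor, which encodes the mTORC1 subunit RAPTOR that binds substrates, read 11.31, 12.10 and 11.22 in KO arrays, against 11.21, 11.94, 12.82, 12.02 and 11.77 in WT arrays. The groups overlapped, the lowest and highest arrays both being WT, and the difference was -0.41 (-1.24 to 0.42, adjusted p = 0.998), or -0.19 without WT array 3. Rictor, the defining subunit of mTORC2, read 9.73, 9.40 and 9.25 in KO arrays, against 9.74, 7.35, 5.42, 9.24 and 9.18 in WT arrays. WT arrays 2 and 3 were low, and WT arrays 1, 4 and 5 read close to the KO arrays. The difference was 1.28 (-0.75 to 3.30, unadjusted p = 0.187), and 0.58 without WT array 3 (-0.61 to 1.77, unadjusted p = 0.291).

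Mtor, the kinase of both complexes, averaged 6.73 ± 0.85 in KO and 6.33 ± 0.68 in WT arrays, a difference of 0.40 (-0.67 to 1.46). Mlst8, a subunit of both complexes, had one of the narrower intervals: it averaged 10.15 ± 0.14 in KO and 10.17 ± 0.24 in WT arrays, a difference of -0.02 (-0.49 to 0.45). Deptor, an inhibitor of mTOR, averaged 6.78 ± 0.89 in KO and 6.54 ± 0.43 in WT arrays. Mapkap1, which encodes the mTORC2 subunit SIN1, averaged 10.80 ± 0.37 in KO and 10.68 ± 0.99 in WT arrays, and its difference was 0.12 over all 8 arrays and -0.27 without WT array 3. Prr5, which encodes the mTORC2 subunit PROTOR1, averaged 5.13 ± 0.38 in KO and 5.32 ± 0.59 in WT arrays.

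In the group of the TSC complex, Rheb and Ddit4, 3 of 5 were tested, and WT array 3 lay more than 1 unit under the average of the remaining WT arrays for all 3. Tsc1, which stabilises the complex, averaged 8.10 ± 0.29 in KO and 8.42 ± 1.66 in WT arrays. Its difference was -0.31 (-2.19 to 1.56), and -0.88 without WT array 3 (-2.26 to 0.50, unadjusted p = 0.180), one of the widest intervals among the members. Tsc2, the subunit that acts on RHEB, averaged 11.59 ± 0.27 in KO and 11.65 ± 0.56 in WT arrays. Rheb read 12.60, 12.98 and 12.31 in KO arrays, against 12.56, 11.73, 11.03, 12.63 and 13.08 in WT arrays. The KO arrays lay inside the WT range, and the difference was 0.42 (-0.59 to 1.44, adjusted p = 0.998), or 0.13 without WT array 3. Tbc1d7, the third subunit of the TSC complex, lay above the array median on 2 of 8 arrays, and read 4.04 to 6.14 in KO and 5.09 to 6.67 in WT arrays. Ddit4, which encodes the stress-induced mTORC1 inhibitor REDD1, lay below the median on all 8, at 4.89 to 5.23 in KO and 4.42 to 4.98 in WT arrays.

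Of the mTORC1 substrates, 3 of 4 were tested (not Rps6kb1, which encodes S6K1). KO averaged below WT for each of the 3 with all arrays, and for 2 of 3 without WT array 3, which was the highest array for each. Eif4ebp2, which encodes the translation repressor 4E-BP2, read 10.06, 9.71 and 9.61 in KO arrays, against 9.93, 9.92, 11.08, 10.74 and 10.05 in WT arrays. KO arrays 2 and 3 were the lowest of all 8, and KO array 1 lay above WT arrays 1, 2 and 5. The difference was -0.55 (-1.27 to 0.17, unadjusted p = 0.117, adjusted p = 0.998), the most negative among the members with all arrays, and -0.37 without WT array 3 (-0.93 to 0.20, unadjusted p = 0.174). Eif4ebp1, which encodes 4E-BP1, read 11.12, 11.38 and 10.91 in KO arrays, against 10.79, 10.92, 12.57, 11.44 and 10.96 in WT arrays. Only WT array 3 stood away from the rest, and the difference was -0.20 (-1.11 to 0.70) with it and 0.10 (-0.38 to 0.59) without it. Rps6kb2, which encodes the S6 kinase S6K2, read 7.64, 7.85 and 7.96 in KO arrays, against 7.92, 7.96, 8.55, 7.75 and 8.03 in WT arrays. The groups overlapped, and the difference was -0.23 (-0.74 to 0.29) over all 8 arrays and -0.10 (-0.47 to 0.28) without WT array 3.

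**Figure D3:**
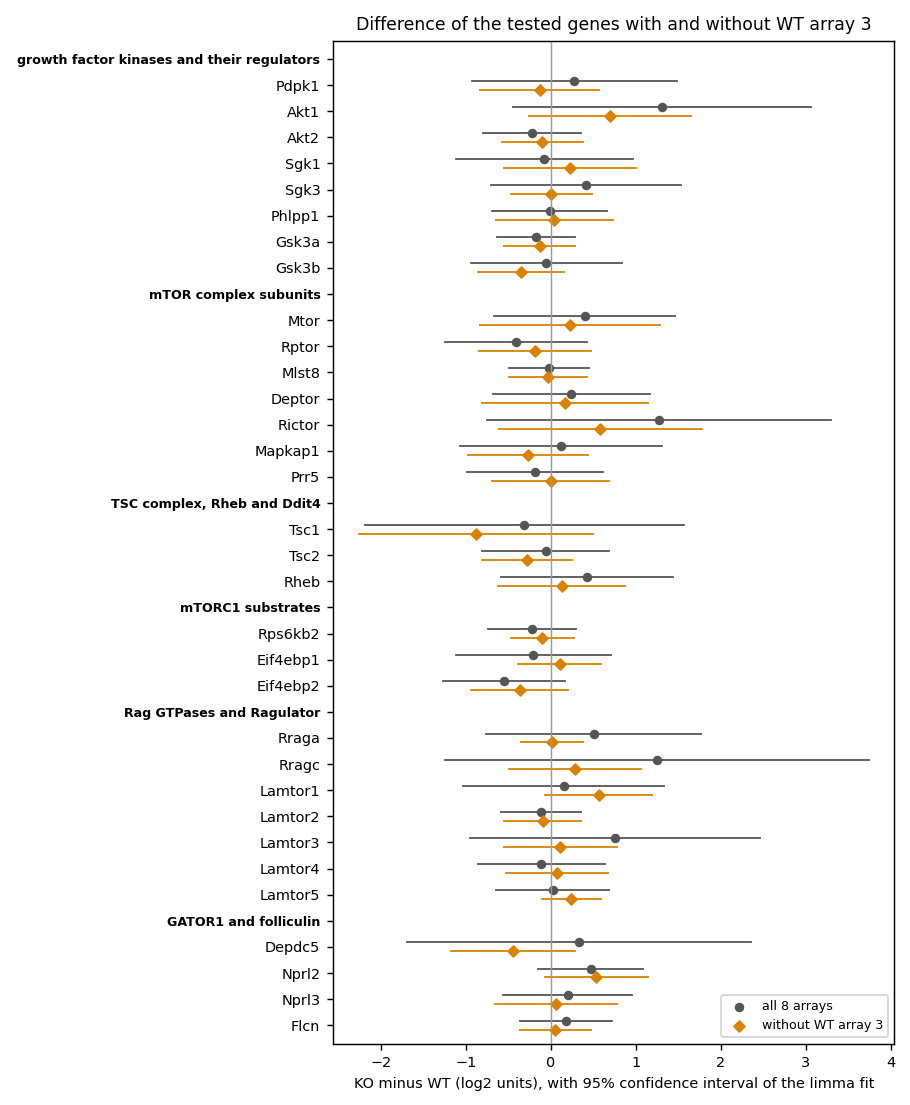
Difference between the KO and WT group means in log2 units (x axis) for each of the 32 tested members, grouped by role down the page; grey circles are the fit to all 8 arrays, orange diamonds the fit without WT array 3, and lines are 95% confidence intervals of the limma fit. All intervals of both fits hold 0, and those of Akt1, Rictor and Rragc, at 1.31, 1.28 and 1.25 with all arrays, are among the widest.

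Of the Rag GTPases and Ragulator, 7 of 9 were tested, with a median difference of 0.15 with all arrays and 0.11 without WT array 3. Here WT array 3 went both ways: it was the lowest WT array by a wide margin for Rraga, Rragc and Lamtor3 and the highest for Lamtor1, Lamtor4 and Lamtor5. Rragc, which encodes a Rag GTPase that pairs with RagA or RagB, read 11.21, 10.94 and 11.44 in KO arrays, against 10.79, 10.08, 6.08, 11.41 and 11.38 in WT arrays. KO arrays lay beside WT arrays 1, 4 and 5, and WT array 3 was far below every other array. The difference was 1.25 (-1.24 to 3.74, unadjusted p = 0.286), and 0.28 without WT array 3 (-0.49 to 1.06). Rraga, its partner, averaged 10.06 ± 0.12 in KO and 9.56 ± 1.10 in WT arrays, a difference of 0.50, which was 0.01 (-0.35 to 0.38) without WT array 3.

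Lamtor1, which encodes the lipid-anchored subunit that holds Ragulator on the lysosome, read 7.83, 7.72 and 7.80 in KO arrays, against 6.49, 7.33, 9.27, 7.65 and 7.40 in WT arrays. All 3 KO arrays lay above WT arrays 1, 2, 4 and 5, WT array 4 being close behind, and below WT array 3. Its difference was 0.15 (-1.03 to 1.34) with all arrays, and 0.56 without WT array 3 (-0.07 to 1.20, unadjusted p = 0.0730, adjusted p = 0.989, exact permutation p = 0.0571). Lamtor5 read 14.62, 14.65 and 14.79 in KO arrays, against 14.42, 14.44, 15.54, 14.57 and 14.36 in WT arrays. The KO arrays again lay between WT array 3 and the other WT arrays, and the difference was 0.02 (-0.65 to 0.69) over all 8 arrays and 0.24 (-0.11 to 0.59, adjusted p = 0.989, exact permutation p = 0.0571) without WT array 3. These were the only members tested whose KO and WT arrays did not overlap without WT array 3, 2 of 32 (6.25%) against 5.55% of all genes tested, and with all arrays the count was 0 of 32 against 3.09% (1.58% with KO above and 1.51% with KO below WT). Counting one direction, KO above WT held for 2 of 32 without WT array 3 against 2.62% of all genes, and KO below WT for 0 of 32 against 2.93%.

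For the other Ragulator subunits the KO and WT arrays overlapped, with WT array 3 and without it. Without WT array 3 the intervals of their differences overlapped those of Lamtor1 and Lamtor5. Whether the subunits differ from each other was not tested. Lamtor2 read 14.78, 15.31 and 14.75 in KO arrays, against 14.93, 14.93, 15.12, 15.07 and 15.25 in WT arrays. The lowest and highest values were both KO, and the difference was -0.11 (-0.58 to 0.36). Lamtor3 averaged 9.57 ± 0.51 in KO and 8.81 ± 1.47 in WT arrays, and Lamtor4 averaged 13.80 ± 0.55 in KO and 13.92 ± 0.43 in WT arrays. Their differences without WT array 3 were 0.11 (-0.56 to 0.78) and 0.07 (-0.53 to 0.67). Rragb, close kin of Rraga, lay below the array median on all 8 arrays, at 3.59 to 3.79 in KO and 3.24 to 4.71 in WT arrays. Rragd, close kin of Rragc, was as dim against the median of its arrays, and read 4.31, 4.23 and 4.08 in KO arrays, against 3.66, 4.03, 3.82, 3.95 and 3.74 in WT arrays. All 3 KO arrays lay above all 5 WT arrays, with WT array 2 close to KO array 3. This row was below the filter, so it was not in the limma fit and is not among the 32. Its exact permutation p was 0.0357 over 56 splits, and 0.0571 over 35 splits without WT array 3. The lack of overlap, for which the row is shown, nearly fixes these p-values. They are not corrected for the 37 members with a row, and how often rows below the filter fail to overlap was not counted.

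The promoters of these genes were read for the E-box CACGTG, the core of the element bound by TFEB and TFE3, which respond to mTORC1 and are known to act on lysosomal genes, and by MYC and MAX. RefSeq promoters of assembly GRCm38.p6, covering 250 bases before the start to 50 after it, were at hand for 32 of the 39 members (44 promoters), and both strands were searched. CACGTG was found in the promoters of 7 genes: Sgk1, Tbc1d7, Rheb, Rragb, Rragc, Lamtor1 and Lamtor4. That is 21.9% of the 32 members with a promoter, against 11.9% of genes tested and 8.09% of all genes with one, or 15.9% of the members' promoters against 10.1% and 7.15%. These 32 are not the 32 tested members. They include genes below the filter, among them Tbc1d7 and Rragb, so the share of genes tested is not a like comparison. The longer palindrome TCACGTGA, which contains it, was in 0 of the 44, against 1.83% of promoters of genes tested and 0.974% of all promoters. At shares this low, 0 of 44 says little. The forkhead core GTAAACA, the element of the FOXO factors that AKT inhibits, was in promoters of Akt1 and Mapkap1. That is 6.25% of the members with a promoter, against 3.11% of genes tested and 4.05% of all genes. By promoter it was 6.82%, against 2.6% and 3.65%, but the Mapkap1 promoters overlap and share the same match. A match is a description of the letters and not a binding site. Of the CACGTG promoters, those of the tested genes that act at the lysosome are shown 5′ to 3′ on the strand of the gene, with the E-box in capitals: Rheb (chr5:24842312-24842611, minus strand), Rragc (chr4:123917183-123917482, plus strand), Lamtor1 (chr7:101905587-101905886, plus strand) and Lamtor4 (chr5:138255232-138255531, plus strand).
Rheb: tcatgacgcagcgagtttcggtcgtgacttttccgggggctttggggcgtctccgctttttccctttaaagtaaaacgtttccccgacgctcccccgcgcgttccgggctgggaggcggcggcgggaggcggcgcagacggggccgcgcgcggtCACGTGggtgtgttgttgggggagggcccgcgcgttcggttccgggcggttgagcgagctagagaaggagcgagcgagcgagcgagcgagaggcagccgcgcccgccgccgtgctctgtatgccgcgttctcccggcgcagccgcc
Rragc: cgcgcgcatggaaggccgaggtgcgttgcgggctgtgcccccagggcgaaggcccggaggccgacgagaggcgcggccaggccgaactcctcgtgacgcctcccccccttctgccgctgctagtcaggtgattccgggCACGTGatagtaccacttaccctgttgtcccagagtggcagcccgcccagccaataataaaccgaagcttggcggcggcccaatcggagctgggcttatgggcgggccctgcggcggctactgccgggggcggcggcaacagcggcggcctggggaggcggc
Lamtor1: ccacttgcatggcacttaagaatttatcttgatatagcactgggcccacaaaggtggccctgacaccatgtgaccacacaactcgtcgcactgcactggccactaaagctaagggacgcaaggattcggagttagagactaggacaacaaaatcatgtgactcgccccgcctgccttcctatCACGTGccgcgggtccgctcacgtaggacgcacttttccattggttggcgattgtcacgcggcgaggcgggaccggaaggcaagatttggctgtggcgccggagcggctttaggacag
Lamtor4: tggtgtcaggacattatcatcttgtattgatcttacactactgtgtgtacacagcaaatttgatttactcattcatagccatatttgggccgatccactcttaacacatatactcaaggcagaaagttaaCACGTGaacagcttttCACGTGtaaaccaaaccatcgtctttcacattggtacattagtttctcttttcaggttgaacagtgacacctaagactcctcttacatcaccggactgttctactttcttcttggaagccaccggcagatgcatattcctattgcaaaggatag
Counted in bases from the start site, the E-box began at -96 in Rheb, -112 in Rragc and -68 in Lamtor1, and Lamtor4 held a pair, at -120 and -104. Without WT array 3 the differences of these 4 genes, in the same order, were 0.13, 0.28, 0.56 and 0.07, all with intervals that hold 0 and overlap each other. WT array 3 was low for Rheb and Rragc and high for Lamtor1 and Lamtor4.

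GATOR1, which switches RagA and RagB off when amino acids are scarce, and folliculin, which acts on RagC and RagD, gave 4 tested genes of 4. KO averaged above WT for each with all arrays, with a median of 0.26, and for 3 of 4 without WT array 3, with a median of 0.06. Nprl2, a GATOR1 subunit, read 11.73, 11.38 and 11.70 in KO arrays, against 10.45, 11.15, 11.41, 11.12 and 11.55 in WT arrays. KO arrays 1 and 3 were the highest of all 8, and KO array 2 lay just below WT array 3. The difference was 0.47 (-0.15 to 1.08, unadjusted p = 0.121, adjusted p = 0.998, exact permutation p = 0.143), and 0.54 without WT array 3 (-0.07 to 1.15, unadjusted p = 0.0762, adjusted p = 0.989). Flcn, which encodes folliculin, read 13.55, 13.67 and 13.78 in KO arrays, against 13.36, 13.53, 12.99, 13.91 and 13.65 in WT arrays. The groups overlapped, and the difference was 0.18 (-0.36 to 0.72) over all 8 arrays and 0.05 (-0.37 to 0.47) without WT array 3. Depdc5, a GATOR1 subunit that contacts the Rag GTPases, averaged 10.41 ± 0.14 in KO and 10.08 ± 1.81 in WT arrays, and its difference of 0.33 was -0.44 (-1.17 to 0.29) without WT array 3. Nprl3, the remaining subunit, averaged 7.69 ± 0.60 in KO and 7.49 ± 0.43 in WT arrays.

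**Figure D4:**
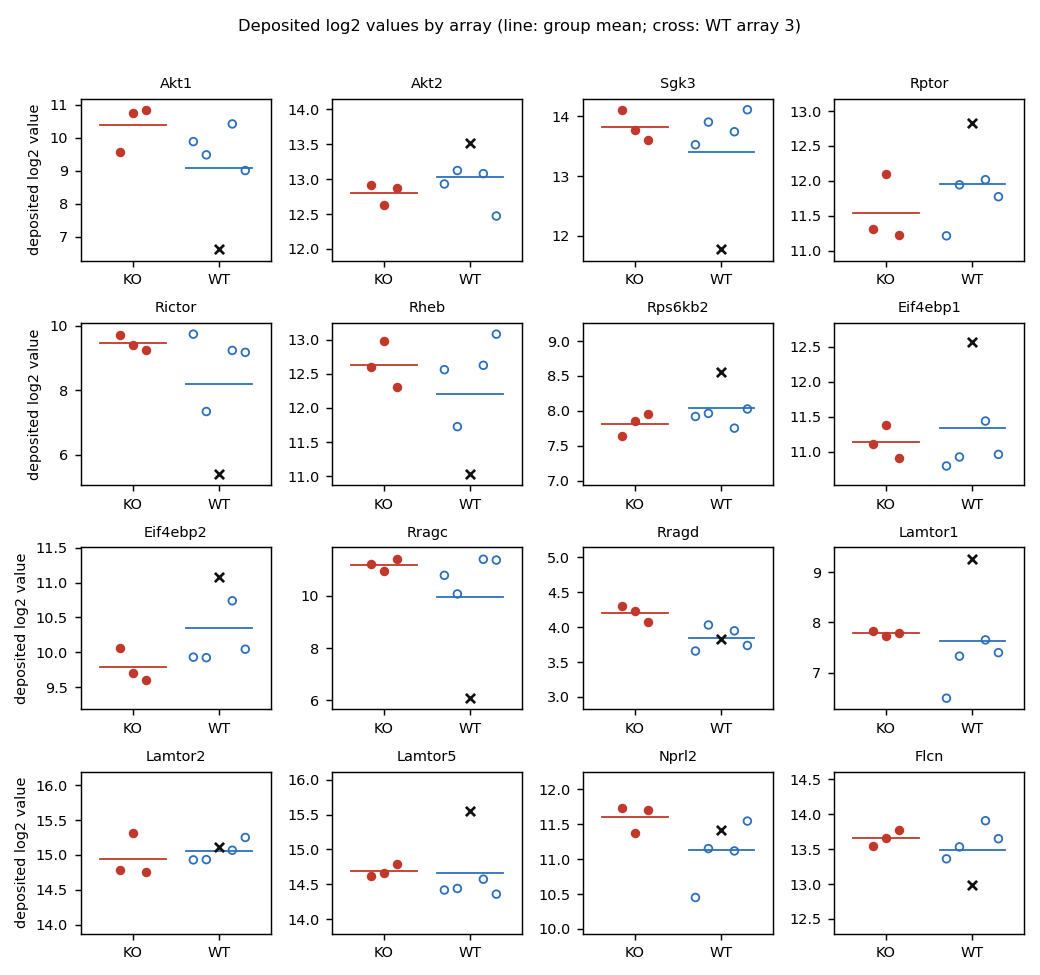
Deposited log2 values (y axis, each panel with its own range) of the 16 members given array by array, for the KO arrays (filled red) and the WT arrays (open blue, with WT array 3 as a black cross); horizontal lines are group means over all arrays. For Lamtor1 and Lamtor5 the KO points lie between WT array 3 and the other WT points, for Akt1, Rictor and Rragc WT array 3 lies far below, and for Rragd, which is below the filter, all KO points lie above all WT points.

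The same held for the wider pathway. Of 52 further genes in 5 lists, 49 had a row and 36 were tested: 9 of AMPK and LKB1, 8 of GATOR2, KICSTOR and the partners of folliculin, 5 amino acid sensors, 3 further AKT and mTOR complex genes and 11 further mTORC1 effectors. In both fits 0 of 36 passed an adjusted p of 0.05 (0.0% of all genes tested in each direction) and 0 of 36 an unadjusted p of 0.05 (2.84% with all arrays and 4.68% without WT array 3). The median difference was 0.17 over all 8 arrays and 0.01 without WT array 3. The smallest p belonged to Prkag1, a gamma subunit of the energy sensor AMPK, which averaged 13.50 ± 0.31 in KO and 12.95 ± 0.31 in WT arrays. Its difference was 0.55 (-0.01 to 1.12, unadjusted p = 0.0535, adjusted p = 0.998), and 0.43 without WT array 3 (unadjusted p = 0.0619, adjusted p = 0.989). Prkaa1, a catalytic subunit of AMPK, averaged 12.40 ± 0.47 in KO and 11.76 ± 0.70 in WT arrays, and Cab39l, a relative of the LKB1 partner MO25, averaged 13.76 ± 0.30 in KO and 13.31 ± 0.39 in WT arrays. The medians of the AMPK and LKB1 list were 0.34 and, without WT array 3, 0.11.

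Among amino acid sensors, Bmt2, which encodes the S-adenosylmethionine sensor SAMTOR, averaged 9.20 ± 0.31 in KO and 8.68 ± 0.56 in WT arrays. Sesn1, a sestrin that inhibits GATOR2, averaged 7.51 ± 0.09 in KO and 6.48 ± 1.49 in WT arrays, and its difference of 1.03 (-0.65 to 2.72) was 0.51 without WT array 3. Lars, the cytosolic leucyl-tRNA synthetase, averaged 8.83 ± 0.53 in KO and 8.39 ± 0.98 in WT arrays. In GATOR2 and around folliculin, Mios averaged 9.49 ± 0.12 in KO and 9.82 ± 0.25 in WT arrays, Sec13 averaged 10.94 ± 0.08 in KO and 10.54 ± 0.61 in WT arrays, and the folliculin partner Fnip1 averaged 10.98 ± 0.33 in KO and 10.81 ± 0.23 in WT arrays. The TELO2, TTI1 and TTI2 proteins help assemble mTOR and related kinases, and the differences of Telo2, Tti1 and Tti2 were -0.12, -0.07 and -0.03. Of mTORC1 effectors, Maf1, a repressor of RNA polymerase III, averaged 10.02 ± 0.23 in KO and 9.41 ± 0.71 in WT arrays. The translation factor gene Eif4b averaged 13.10 ± 0.41 in KO and 12.71 ± 0.47 in WT arrays, and Lpin1, a phosphatidate phosphatase, averaged 6.17 ± 1.30 in KO and 5.36 ± 1.502 in WT arrays. All of these had adjusted p of 0.998.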

How the data were processed

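RNA from sorted cells was biotin-labelled and hybridised as is usual for Affymetrix arrays, per the labels' protocols. The authors deposited 1 table of log2 values for 8 arrays, with 28846 rows and array medians of 5.26 to 5.51. The log base was read from the values (1.89 to 18.6), and the sources used here do not name the software, normalization or build. The design text and the annotation that matches the rows name different Affymetrix mouse arrays, which is unsettled. Of 22206 transcript rows, 19572 had 1 symbol, all found in RefSeq (GRCm38.p6).

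A gene was tested if its row lay above the array median on at least 3 arrays, which left 9920. KO was compared with WT by limma 3.58.1 in R 4.3.3 (lmFit, eBayes, two-sided, Benjamini-Hochberg over all genes tested, threshold 0.05) with no further normalization, and single members by an exact permutation test. The precision is limited by the number of arrays. The scripts were tested on simulated data. Members, lists, tests and alternatives were chosen with earlier results of these data known. Values by array are given for members whose groups did not overlap, the 4 with the smallest p in each direction and the brightest tested member of each role, and up to 3 genes by p of each pathway list are named. The alternatives were other filters, scalings, fits and rows, a replicate block and leaving out each array.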

Additional observations from a re-analysis of the deposited data

Results flagged for a closer look

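In 53 sets of 5 WT values, the lowest or highest array stood away from the rest by more than Dixon's critical value of 0.71 of the range in 10, where chance gives about 1 in 20; the sets share arrays, so the 10 are not independent. WT array 3 was the array in 8 of them. It read low for Sgk3 (11.78, other WT arrays 13.52 to 14.11), Rraga (7.61, others 9.92 to 10.22), Rragc (6.08, others 10.08 to 11.41), Lamtor3 (6.24, others 9.15 to 9.83) and the pathway gene Lars (6.66, others 8.59 to 9.07). It read high for Lamtor5 (15.54, others 14.36 to 14.57) and for Tbc1d7 (6.67, others 5.09 to 5.37), and its mean correlation with the other arrays was 0.921 (other WT arrays 0.971 to 0.972). Over all genes tested, this array lay outside the range of the other 7 for 61.5%. The remaining values were Phlpp2 in WT array 1 (3.61, others 4.50 to 4.78), a gene below the array median, and Deptor in WT array 5 (7.30, others 6.24 to 6.43). KO, with 3 arrays, was not searched.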

How the results depend on the processing

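In 17 alternative settings no member and no named pathway gene passed an adjusted p of 0.05, and the smallest adjusted p among them was 0.936. The count of all genes at an unadjusted p of 0.05 was 282, and 464 when WT array 3 was left out. The members' median difference of 0.07 stayed above 0 in every setting. It ran from 0.02 with no filter to 0.27 with the replicate number as a block, where 0 members were called. Deviations from the group mean correlated at 0.02, -0.02 and 0.14 between same-numbered KO and WT arrays, and at -0.12 to 0.14 between differently numbered ones. These values cannot settle whether the numbers pair the arrays. Of 32 members, 15 kept the sign of their difference in every setting, 17 turned in at least 1 and 11 in a setting that leaves out no array. Of 15 named pathway genes 11 kept it and 4 turned. Some settings could not turn a sign: the other filters, the row of largest variance (each of these genes had 1 row) and eBayes with a variance trend leave a gene's difference unchanged. Only the remaining settings bear on these counts. With array weights the differences that turned were Pdpk1 -0.0752, Sgk1 0.26, Phlpp1 0.0305, Mapkap1 -0.21, Eif4ebp1 0.0847, Lamtor4 0.00742, Depdc5 -0.31 and Tti2 0.14. With the replicate block they were Phlpp1 0.10, Gsk3b 0.0531, Tsc1 0.55, Tsc2 0.26 and Lamtor5 -0.11, and with quantile normalization Lamtor5 -0.00177. Leaving out 1 array at a time, the differences that took both signs were those of Pdpk1 (-0.13 to 0.58), Sgk1 (-0.40 to 0.23), Phlpp1 (-0.21 to 0.17), Gsk3b (-0.35 to 0.13), Mtor (-0.0765 to 0.74), Mlst8 (-0.10 to 0.0672), Deptor (-0.15 to 0.73), Mapkap1 (-0.27 to 0.30), Prr5 (-0.38 to 0.0312), Tsc1 (-0.88 to 0.16), Tsc2 (-0.28 to 0.0633), Eif4ebp1 (-0.34 to 0.10), Lamtor1 (-0.13 to 0.56), Lamtor4 (-0.42 to 0.11), Lamtor5 (-0.0566 to 0.24), Depdc5 (-0.44 to 0.67), Nprl3 (-0.14 to 0.40), Fnip1 (-0.0126 to 0.28), Telo2 (-0.36 to 0.22), Tti1 (-0.20 to 0.0281) and Tti2 (-0.11 to 0.14). The cause of these turns was not tested beyond the array left out. The number of arrays limits the precision. With all arrays the interval excluded a 2-fold difference for 13 of 32 members, a count that depends on the differences as well as on the precision.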
